A study of Mus musculus with 6 samples.

Results

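The SLC25 carriers, the uncoupling proteins and the Mtch genes form 1 protein family, and 52 genes of the deposited table carry one of their symbols (Slc25a with a number, Ucp1 to Ucp3, Mtch1 or Mtch2). A count above 0 in at least 1 library was found for 49 of them, and these 49 of 55401 listed genes are the members described here. Ucp1, the uncoupling protein of brown fat, and the ATP-Mg carrier relatives Slc25a41 and Slc25a54 had a count of 0 in all 6 libraries. The tissue was whole liver of male mice aged 8 weeks when the experiment began and kept on MCD for 5 weeks, a diet that the labels give only by this abbreviation. The 3 control mice carried floxed Prdx1 alleles, written Prdx1(lox/lox), without Cre, and the 3 knockout mice carried the same alleles with Alb-cre, a Cre transgene driven by the albumin promoter of hepatocytes. No mouse on another diet and no mouse with Alb-cre alone was analysed here, so an effect of the transgene cannot be told apart from that of the lost gene, and all values hold for livers on this diet.

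Members of this family span the inner mitochondrial membrane and exchange metabolites, nucleotides, phosphate, amino acids and cofactors between the cytosol and the matrix. In liver they carry ADP and ATP for oxidative phosphorylation, ornithine for the urea cycle, aspartate and malate for the shuttle that moves reducing equivalents, and citrate for fat synthesis. Uncoupling proteins let protons return to the matrix without making ATP, and Mtch1 and Mtch2 are divergent relatives that lie in the outer membrane.

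Deposited counts totalled 58790874 to 78291273 per library. Prdx1, the targeted gene, stood at 644, 570 and 663 CPM in control livers and at 78.7, 111 and 75.4 CPM in knockout livers (CPM are counts relative to the library total after TMM scaling, which sets library sizes so that most genes do not differ). Hepatocyte markers were abundant in every library, at a summed 100000 to 122000 CPM in control livers and 57800 to 72700 CPM in knockout livers. By the test below 12 of 13 were lower, and 9 of 13 with library sizes alone. Their median log2 fold change, knockout minus control, was -0.80, and -0.43 with library sizes alone. The part of hepatocytes in the carrier differences below was not tested. Markers of other cells went both ways. Past the threshold and higher in knockout livers were 9 of 9 cholangiocyte, 10 of 10 macrophage, 7 of 8 stellate cell, 4 of 7 T and NK cell and 3 of 5 neutrophil genes. None of the tested sinusoidal endothelium, B cell or erythroid genes was higher with TMM factors, and 3 of 7, 2 of 5 and 1 of 3 were lower (with library sizes alone 1 endothelial and 1 erythroid gene were higher). Sinusoidal endothelium genes summed to 468 to 503 CPM in control and 346 to 406 CPM in knockout livers. Summed levels of the lists that rose most were 87 to 98.1 against 1160 to 1350 CPM for cholangiocyte genes, 996 to 1080 against 2400 to 2490 CPM for macrophage genes and 688 to 767 against 1940 to 2270 CPM for stellate cell genes. In such bulk tissue, fewer cells of a type and less RNA per cell cannot be told apart.

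With TMM factors, most of the abundant carriers were lower in knockout livers and a small set of scarcer ones was higher. Of 46 members with enough counts to test, 21 fell, 6 rose and 19 did not pass an adjusted p of 0.05 (edgeR's quasi-likelihood test, Benjamini-Hochberg adjustment over all 18931 genes tested). The members that fell make up 45.7% of those tested, where 18.0% of all genes fell, and 6 of 46 rose, where 19.9% of all genes did. The median log2 fold change, knockout minus control, was -0.28 over the members and 0.05 over all genes. Over the members it turned to 0.09 with library sizes alone and to 0.07 with limma on FPKM, where all genes stood at 0.41 and 0.25. The 6 that rose were Slc25a36 (3.62-fold), Slc25a24 (3.30-fold), Slc25a4 (3.16-fold), Ucp2 (2.23-fold), Slc25a14 (1.99-fold) and Slc25a27 (log2 fold change 0.68). Among those that fell, Slc25a44, Slc25a13, Slc25a30 and Slc25a22 had the lowest log2 fold changes, at -1.16, -1.10, -1.08 and -1.07.

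The number that fell depends on how libraries are scaled, and the number that rose depends on it less. With library sizes alone, without TMM factors, 12 members fell and 9 rose, where 6.6% of all genes fell and 34.1% rose, and the median over all genes moved from 0.05 to 0.41. With limma on the deposited FPKM (fragments per kilobase of transcript, scaled to library depth), 12 fell and 10 rose, against 7.21% and 35.2% of all genes. The same 12 members fell under all 3 scalings: the carriers Slc25a5, Slc25a10, Slc25a11, Slc25a16, Slc25a17, Slc25a21, Slc25a22, Slc25a25, Slc25a30, Slc25a32 and Slc25a47, and Mtch2. The 6 that rose did so under all 3. In the other 9 that fell with TMM factors the call was lost with library sizes alone, and Slc25a3 then stood at 0.01. In TMM-scaled CPM the groups did not overlap for 23 members that were lower in knockout livers and 10 that were higher, 50.0% and 21.7% of those tested, against 24.2% and 28.8% of all genes. For every member that fell or rose by the test, the 3 knockout libraries lay on 1 side of the 3 control libraries in these CPM. The test used the same TMM factors, so this separation is not independent of the calls. The factors were 0.8693 to 0.8875 in control and 1.0956 to 1.1586 in knockout libraries. In FPKM the groups of Slc25a3, Slc25a15, Slc25a20, Slc25a45 and Slc25a46 overlapped.

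**Figure D1:**
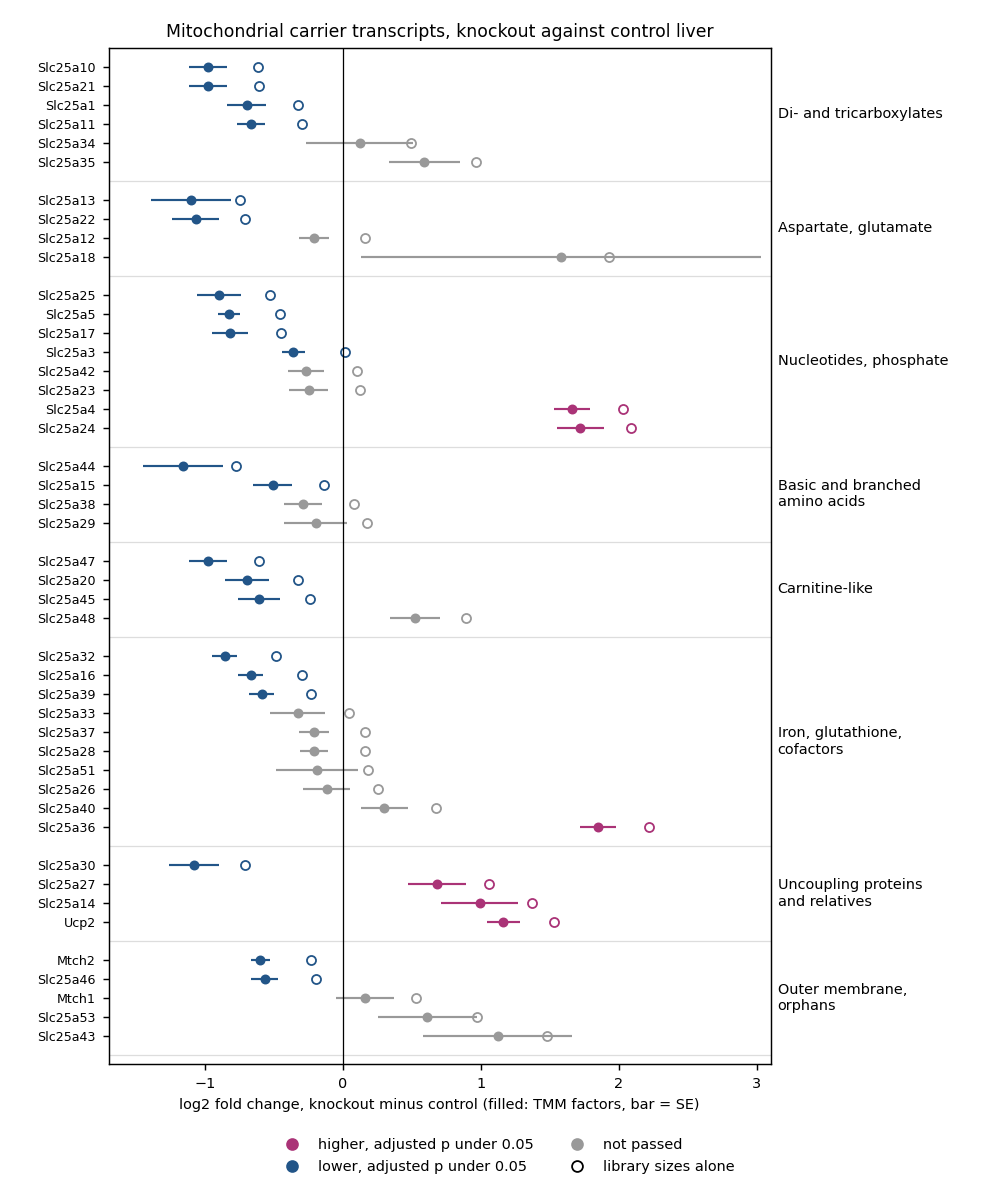
Log2 fold change of 45 tested members (x axis, knockout minus control), grouped by what they carry, with TMM factors (filled points, bars are SE) and with library sizes alone (open points). The 6 members in purple stay above 0 under both scalings, 20 of the 21 members in blue stay below 0 under both, and Slc25a3 lies at 0.01 with library sizes alone, while 10 members that did not pass change sign.

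The 3 members with the largest rise were carriers of nucleotides. Slc25a36, an importer of pyrimidine nucleotides (ENSMUSG00000032449, chromosome 9, 97074961 to 97111157, minus strand, GRCm38), was at 6.40, 8.00 and 7.75 CPM in control livers and at 27.3, 27.3 and 25.6 CPM in knockout livers. Slc25a24, a calcium-regulated carrier of ATP-Mg and phosphate (chromosome 3, 109123149 to 109168457, plus strand), was at 6.49, 5.27 and 7.96 CPM and at 20.3, 23.0 and 21.8 CPM. Slc25a4, the ADP/ATP translocase that heart and muscle use most (chromosome 8, 46206797 to 46211284, minus strand), was at 12.5, 9.50 and 11.9 CPM and at 35.6, 34.8 and 36.9 CPM. In each of the 3, every knockout library was above every control library by more than the spread within either group. Their log2 fold changes were 1.85 ± 0.13, 1.72 ± 0.17 and 1.66 ± 0.13 (SE), with adjusted p of 7.2e-05, 0.000297 and 0.000108 by edgeR's quasi-likelihood test. With each library left out in turn the adjusted p of these 3 reached at most 0.00244. Of 4 striated muscle genes, Ckm and Myh4 had a count of 0 in all libraries and the list summed to 0 to 0.143 CPM in control and 0.441 to 0.928 CPM in knockout livers. Acta1, the only one tested, was at a log2 fold change of 2.86 and did not pass (adjusted p = 0.0667 in edgeR), but passed with library sizes alone (0.0419).

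Ucp2, the uncoupling protein of macrophages and many other cells (ENSMUSG00000033685, chromosome 7, 100493337 to 100502020, plus strand), was at 54.4, 64.5 and 68.4 CPM in control livers and at 127, 136 and 155 CPM in knockout livers. The groups were apart by more than the spread of either, and the fitted difference was 1.16 ± 0.12 in log2 (SE; adjusted p = 0.000368, edgeR). Macrophage markers were higher in the same libraries (median log2 fold change 1.29 over 10 genes), as were cholangiocyte (3.98 over 9) and stellate cell markers (1.60 over 8), and their part in the rise of Ucp2, Slc25a4, Slc25a24 and Slc25a36 was not tested. Dnajb13, a gene that overlaps Ucp2 on the opposite strand, was at 1.93 ± 0.542 CPM in control livers and 5.55 ± 1.55 CPM in knockout livers (SD, n = 3 each), far below Ucp2. Gm16185, which overlaps Slc25a36 on the opposite strand, was at 0.222 ± 0.180 and 1.15 ± 0.266 CPM. For some other members the opposite-strand gene was the more abundant one in control livers. Among these were Atp6v1e1 (122.6 CPM) over Slc25a18 (0.119), Lrig1 (37.6) over Slc25a26 (9.59) and Rangrf (2.245) over Slc25a35 (1.49).

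Promoters of 3 of the 4 members with the largest rise, and of the most abundant members that fell, Slc25a5 and Slc25a47, are shown because much of the comparison turns on these genes. RefSeq start sites (GRCm38.p6) were found for 39 of the 49 members. Each sequence runs 5′ to 3′ on the gene's strand within the 250 bases before the start, without bases that GENCODE M21 annotates as exon, and most of the window of Slc25a4 is such exon and is not shown. Capitals mark matches, on either strand, to short promoter motifs. The TATA box was searched as TATAAA and the CCAAT box by the letters of its name. The GC box, which Sp family factors bind, was searched as GGGCGG, and the core of the site for the respiration factor Nrf1 as GCATGCGC. The element of estrogen-related receptors was searched as AAGGTCA, the antioxidant response core, the site of Nfe2l2, as TGACNNNGC, and the E-box as CACGTG.
Slc25a36, chr9:97111158-97111291, minus strand: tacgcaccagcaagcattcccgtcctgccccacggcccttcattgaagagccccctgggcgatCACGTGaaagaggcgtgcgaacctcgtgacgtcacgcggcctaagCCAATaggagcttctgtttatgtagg
Slc25a24, chr3:109122899-109123148, plus strand: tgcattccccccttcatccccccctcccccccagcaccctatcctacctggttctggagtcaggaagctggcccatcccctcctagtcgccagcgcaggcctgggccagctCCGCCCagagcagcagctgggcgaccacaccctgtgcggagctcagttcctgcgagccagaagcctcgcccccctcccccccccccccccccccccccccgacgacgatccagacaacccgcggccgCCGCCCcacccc
Ucp2, chr7:100493108-100493336, plus strand: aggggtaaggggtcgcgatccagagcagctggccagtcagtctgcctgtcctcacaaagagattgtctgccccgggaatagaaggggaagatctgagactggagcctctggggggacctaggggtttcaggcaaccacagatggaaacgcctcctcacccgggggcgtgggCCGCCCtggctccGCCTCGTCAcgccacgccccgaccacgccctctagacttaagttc
Slc25a5, chrX:36795347-36795596, plus strand: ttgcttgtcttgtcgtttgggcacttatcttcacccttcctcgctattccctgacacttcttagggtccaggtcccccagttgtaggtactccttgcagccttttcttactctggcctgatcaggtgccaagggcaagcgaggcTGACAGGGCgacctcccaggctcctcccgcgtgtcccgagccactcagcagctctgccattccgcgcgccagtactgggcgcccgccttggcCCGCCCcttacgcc
Slc25a47, chr12:108850879-108851128, plus strand: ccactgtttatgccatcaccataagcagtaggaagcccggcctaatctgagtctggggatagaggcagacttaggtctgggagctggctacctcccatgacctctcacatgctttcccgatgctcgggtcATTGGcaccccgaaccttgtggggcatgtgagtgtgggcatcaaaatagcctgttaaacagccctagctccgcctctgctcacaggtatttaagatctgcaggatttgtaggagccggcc
The 134 bases shown for Slc25a36 hold an E-box and a CCAAT box (its whole window also has a GC box, outside these bases), that of Slc25a24 holds 2 GC boxes, and that of Ucp2 holds a GC box and an antioxidant response core. Slc25a5 has a GC box and an antioxidant response core as well, and Slc25a47 has a CCAAT box. Counted over whole windows of 250 bases, annotated exon included, a GC box was present in 28 of 39, a CCAAT box in 18, an antioxidant response core in 9, an E-box in 7, and a TATA box, an Nrf1 core and an estrogen-related receptor element in 2 each. Of all 32851 windows of the same length in the RefSeq table, 32.7% hold a GC box, 33.8% a CCAAT box, 10.2% an antioxidant response core, 6.02% an E-box, 12.4% a TATA box, 2.26% an Nrf1 core and 4.08% an estrogen-related receptor element. A member was counted if any of its windows held the motif, and some members have several windows. The percentages are of single windows, so the member counts are not in like units and can be raised by this. The antioxidant response core was found in 2 of 5 members that rose and in 4 of 18 that fell. An AAGGTCA match can overlap a TGACNNNGC match on the other strand, as it does before Mtch2. The median GC content was 58.8% over the members and 52.4% over all windows.

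**Figure D2:**
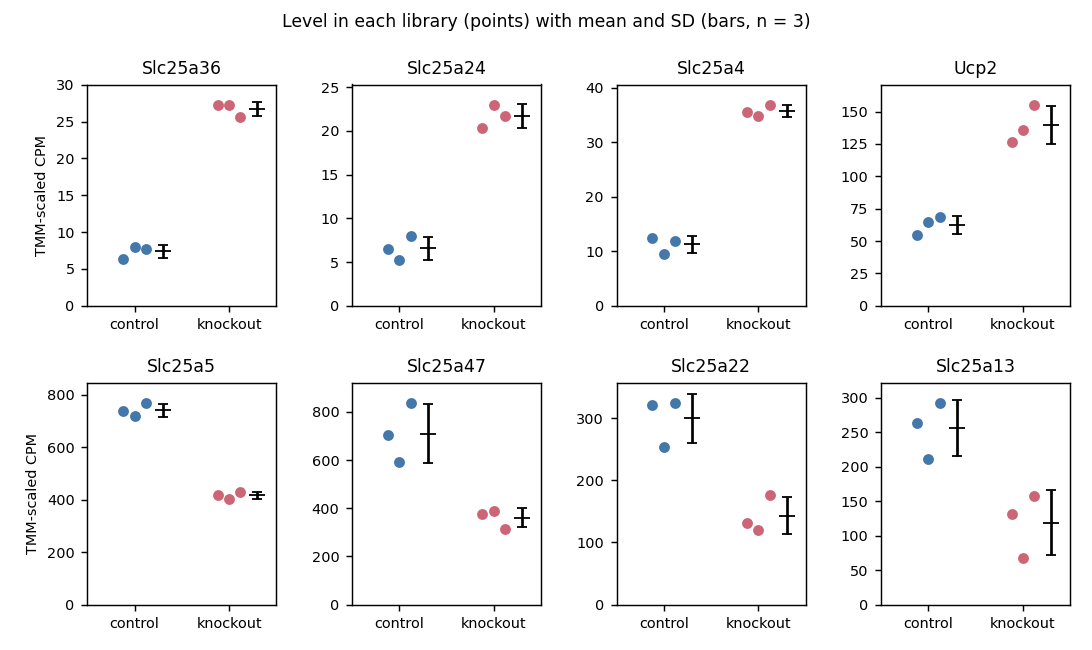
TMM-scaled CPM (y axis, from 0) in each of the 3 control and 3 knockout libraries (points), with mean and SD beside them, for the 4 members with the largest rise (upper row) and 4 that fell (lower row). The knockout points lie above all control points in the upper row and below them in the lower row, and Slc25a13 has 1 knockout library at 66.9 CPM, below the others of its group.

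Counts per group of carriers, here and below, are with TMM factors, where 18.0% of all genes fell and 19.9% rose. The groups are small, and none was compared with all genes by a test. Carriers of dicarboxylates, citrate and keto acids fell in 4 of 6 tested members, and none rose. Slc25a10, the malate, succinate and phosphate exchanger, was at 173, 146 and 185 CPM in control livers and at 87.3, 71.7 and 96.4 CPM in knockout livers. Slc25a11, which exchanges malate for oxoglutarate in the malate-aspartate shuttle, was at 72.8, 77.5 and 70.8 CPM and at 41.4, 46.6 and 51.0 CPM. Both sets of values were apart, with log2 fold changes of -0.98 and -0.67. Slc25a1, the citrate exporter that supplies acetyl units for fatty acid and sterol synthesis, was at 138, 152 and 136 CPM and at 71.2, 103 and 88.5 CPM. Slc25a21, a carrier of oxoadipate from lysine breakdown, was at 14.3, 12.8 and 12.5 CPM and at 6.96, 7.04 and 6.11 CPM. Their log2 fold changes were -0.70 and -0.98, and that of Slc25a1 was -0.33 with library sizes alone (adjusted p = 0.0899 by edgeR). The uncharacterised relatives Slc25a34 and Slc25a35 stood at 0.12 and 0.59 and did not pass, though Slc25a35 passed with library sizes alone (0.96).

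Of 4 aspartate and glutamate carriers, 2 fell. Slc25a13 (citrin), the aspartate-glutamate carrier of liver (chromosome 6, 6041218 to 6217173, minus strand), was at 263, 212 and 292 CPM in control livers and at 132, 66.9 and 158 CPM in knockout livers. Slc25a12 (aralar), the form that brain and muscle use, was at 27.0, 29.9 and 32.2 CPM and at 27.6, 25.8 and 23.7 CPM, and its groups overlapped. The log2 fold change was -1.10 ± 0.29 (SE) for Slc25a13 and -0.21 ± 0.11 for Slc25a12, with adjusted p of 0.0197 and 0.183 by edgeR's quasi-likelihood test. The Slc25a13 call was lost without control 1 and without control 3 (adjusted p up to 0.0608 in edgeR). Slc25a22, a glutamate carrier, was at 322, 254 and 324 CPM and at 132, 120 and 177 CPM, with a log2 fold change of -1.07. Slc25a18, the other glutamate carrier, had 20 deposited counts in 1 control library and 0 in the others, against 20, 35 and 33 in knockout livers, and did not pass. It passed without control 1 (adjusted p = 0.0172 in edgeR), which leaves both remaining controls at 0.

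Carriers of adenine nucleotides and phosphate went both ways, with 4 of 8 lower and 2 higher. Slc25a5, the main ADP/ATP translocase of these livers and the most abundant member (ENSMUSG00000016319, chromosome X, 36795651 to 36798807, plus strand), was at 737, 719 and 768 CPM in control livers and at 418, 402 and 429 CPM in knockout livers. It differed by -0.83 ± 0.08 in log2 (SE; adjusted p = 0.000209, edgeR), and it fell under each alternative tried. Slc25a17, a carrier of coenzyme A and related cofactors in peroxisomes, was at 58.2, 74.2 and 59.1 CPM and at 32.7, 39.8 and 35.9 CPM. Slc25a25, a calcium-regulated ATP-Mg carrier like Slc25a24, was at 296, 270 and 321 CPM and at 121, 170 and 186 CPM. In all 3 the genotypes did not overlap. Slc25a3, the phosphate carrier that ATP synthase depends on, was at 361, 321 and 342 CPM and at 270, 256 and 273 CPM, a log2 fold change of -0.36 that became 0.01 with library sizes alone. In FPKM it was at 49.5 ± 3.51 in control livers and 49.1 ± 1.41 in knockout livers (SD, n = 3 each). The coenzyme A carrier Slc25a42 and the ATP-Mg carrier Slc25a23 stood at -0.27 and -0.25, did not pass (Slc25a42 passed without control 2, adjusted p = 0.0411 in edgeR), and were at 0.10 and 0.12 with library sizes alone. Slc25a31, an ADP/ATP translocase of germ cells, had 4 deposited counts in 1 control and 23 in 1 knockout library and was not tested, and the germ cell genes Prm1, Tnp1 and Acrv1 had a count of 0 in all libraries.

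Related carriers were also compared by their ratio within a library, which does not depend on how libraries are scaled. In 8 of 10 pairs the ratios did not overlap between genotypes, and no pair passed after adjustment. The pairs were chosen with earlier results known. How often ratios of other gene pairs do not overlap was not computed. Among single genes, groups did not overlap in 24.2% that were lower and 28.8% that were higher, in TMM-scaled CPM. The ratio of Slc25a5 to Slc25a4, in FPKM, was 84.2, 108 and 92.4 in control livers and 16.8, 16.6 and 16.6 in knockout livers. So Slc25a5 remained the more abundant translocase in all 6 libraries. The ratio of Slc25a24 to Slc25a25 was 0.0502, 0.0447 and 0.0568 in control livers and 0.386, 0.311 and 0.268 in knockout livers. Slc25a33 to Slc25a36, both pyrimidine nucleotide carriers, was at 29.5, 27.1 and 21.1 against 6.66, 5.92 and 4.22. In each of these 3 pairs the scarcer member gained on the more abundant one in every knockout library. Slc25a12 to Slc25a13 was at 0.0530, 0.0731 and 0.0571 against 0.108, 0.199 and 0.0778, with 1 knockout library close to the controls. Of 12 pairs listed, 10 had counts in all libraries, and each of the 8 without overlap had p = 0.1 in an exact two-sided permutation test, the smallest value that 3 against 3 allows, and 0.125 after Benjamini-Hochberg adjustment over the 10 pairs. The ratios of Slc25a37 to Slc25a28 and of Slc25a10 to Slc25a11 overlapped, with exact permutation p of 1.0 and 0.3, and the second differed by -0.31 in log2.

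**Figure D3:**
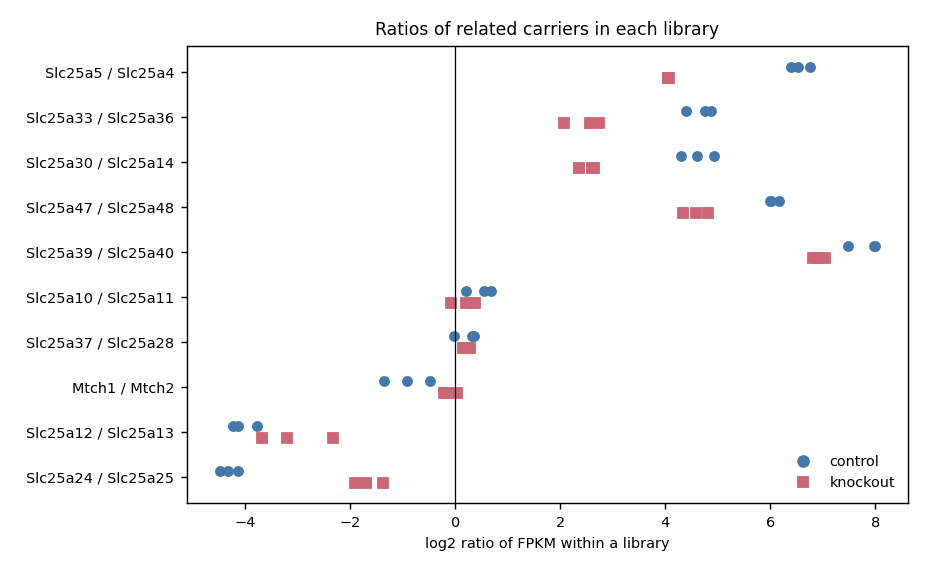
Log2 ratio of FPKM (x axis) for 10 pairs of related carriers in each control (circles) and knockout library (squares). In 8 pairs the squares lie apart from the circles, furthest in Slc25a24 to Slc25a25 (a difference of 2.66) and Slc25a5 to Slc25a4 (-2.50), and in Slc25a37 to Slc25a28 and Slc25a10 to Slc25a11 they overlap.

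Among carriers of ornithine, basic and branched amino acids and glycine, 2 of 4 tested members fell. Slc25a44, an importer of branched-chain amino acids, was at 86.1, 154 and 95.3 CPM in control livers and at 51.8, 65.0 and 33.1 CPM in knockout livers. Slc25a15, the ornithine carrier of the urea cycle (chromosome 8, 22375551 to 22398597, minus strand), was at 443, 428 and 340 CPM and at 240, 284 and 327 CPM, so that the lowest control and the highest knockout were close. The log2 fold changes were -1.16 ± 0.29 and -0.51 ± 0.14 (SE), with adjusted p of 0.0163 and 0.0260 by edgeR. The Slc25a44 call was lost without knockout 1 (adjusted p = 0.0537 in edgeR), and that of Slc25a15 without control 1, control 2, knockout 1 or knockout 2 (up to 0.0882) and with library sizes alone (0.424). Slc25a38, a glycine carrier needed for haem synthesis, stood at -0.29 and Slc25a29, a carrier of basic amino acids, at -0.20, and neither passed. Slc25a2, another ornithine carrier, had 8, 21 and 0 deposited counts in control livers and 4, 15 and 4 in knockout livers and was not tested.

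Of the carnitine carrier and its 3 sequence relatives, 3 fell. Slc25a20, which exchanges acylcarnitine for carnitine so that long-chain fatty acids can be oxidised, was at 167, 117 and 170 CPM in control livers and at 102, 80.6 and 97.3 CPM in knockout livers. Slc25a47, a carrier made mainly in hepatocytes and ranked after Slc25a5 in level (ENSMUSG00000048856, chromosome 12, 108836046 to 108856815, plus strand), was at 703, 591 and 836 CPM and at 377, 388 and 315 CPM. Slc25a45 was at 22.9, 28.2 and 24.0 CPM and at 18.9, 13.7 and 16.7 CPM. In these CPM all 3 were lower in each knockout than in any control. In FPKM the groups of Slc25a20 and Slc25a45 overlapped, and those of Slc25a47 did not. The log2 fold changes were -0.70, -0.98 and -0.61, and with library sizes alone only that of Slc25a47 passed (-0.61, adjusted p = 0.0154 in edgeR). The Slc25a45 call was lost without control 2 (adjusted p = 0.0510 in edgeR). Slc25a48 was at 12.5, 10.3 and 13.2 CPM and at 21.1, 15.7 and 14.8 CPM, with groups that did not overlap, a log2 fold change of 0.52 and an adjusted p of 0.0510 in edgeR, which was 0.00696 with library sizes alone and 0.0469 without knockout 3.

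Carriers of iron, glutathione and cofactors were the largest group. Of its 11 tested members 3 fell, 1 (Slc25a36, above) rose and 7 did not pass, where 18.0% of all genes fell and 19.9% rose. Slc25a39, which brings glutathione into mitochondria (chromosome 11, 102402985 to 102407544, minus strand), was at 400, 362 and 428 CPM in control livers and at 275, 266 and 247 CPM in knockout livers. Its relative Slc25a40 was at 4.85, 6.21 and 5.12 CPM and at 6.35, 6.81 and 6.72 CPM. The fitted log2 difference was -0.59 ± 0.09 (SE) for Slc25a39, which moved to -0.23 with library sizes alone (adjusted p = 0.120 in edgeR), and 0.30 ± 0.17 for Slc25a40, which did not pass (0.206) but passed with library sizes alone (0.67, adjusted p = 0.0154 in edgeR). Slc25a32, a carrier of folate or flavin, was at 65.7, 61.7 and 69.9 CPM and at 36.1, 37.0 and 35.9 CPM, a log2 fold change of -0.86. Slc25a16, a carrier linked to coenzyme A, was at 77.0, 77.0 and 74.2 CPM and at 45.0, 45.7 and 52.8 CPM, a log2 fold change of -0.67. Both were lower in every knockout and passed under all 3 scalings. The mitoferrins Slc25a37 and Slc25a28, which import iron, stood at -0.21 each and did not pass, and with library sizes alone both were at 0.16.

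Other cofactor carriers did not pass either. Slc25a26, the carrier of S-adenosylmethionine, stood at -0.12 and Slc25a33 at -0.33. With library sizes alone these values were 0.25 and 0.04. Slc25a51, the NAD+ carrier, was at 89.1, 38.4 and 93.2 CPM in control livers and at 60.0, 68.2 and 65.9 CPM in knockout livers. Control 2 was thus below all knockouts and the other controls above them, and the log2 fold change of -0.19 ± 0.30 (SE) did not pass. Without control 2 it was -0.50 and passed (adjusted p = 0.00993 in edgeR).

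With TMM factors, uncoupling proteins and their relatives were the only group with more members higher (3 of 4 tested) than lower (1). Over all genes 19.9% rose and 18.0% fell. This contrast rests on Slc25a14 and Slc25a27, whose calls were lost when some libraries were left out. Beside Ucp2, Slc25a14 was at 1.57, 1.93 and 1.83 CPM in control livers and at 4.30, 3.78 and 2.54 CPM in knockout livers, and Slc25a27 was at 4.71, 5.32 and 5.54 CPM and at 8.84, 9.92 and 6.23 CPM. These are forms best known from nervous tissue, and in both knockout 3 lay nearest the controls. The log2 fold changes were 0.99 ± 0.28 and 0.68 ± 0.21 (SE), with adjusted p of 0.0249 and 0.0342 by edgeR. The Slc25a14 call was lost without control 1, control 3, knockout 1 or knockout 2 (adjusted p up to 0.0955 in edgeR), and that of Slc25a27 without any library except knockout 3 (up to 0.124). Slc25a30, a relative of Slc25a14, was at 90.8, 89.1 and 68.6 CPM and at 42.2, 45.3 and 29.8 CPM, with a log2 fold change of -1.08. The ratio of Slc25a30 to Slc25a14 in FPKM went from 30.6, 24.3 and 19.6 to 5.12, 6.24 and 6.07. Ucp3, the uncoupling protein of muscle, had 4 deposited counts in 1 control and 12 in 1 knockout library, and Ucp1 had none.

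At the outer membrane, Mtch2, which inserts proteins there and binds the death factor Bid, was at 146, 148 and 149 CPM in control livers and at 94.5, 97.9 and 99.1 CPM in knockout livers. It differed by -0.60 ± 0.07 in log2 (SE; adjusted p = 0.000721, edgeR). Mtch1 was at 51.2, 69.8 and 38.3 CPM and at 55.8, 55.7 and 67.0 CPM, with overlapping groups. The Mtch1 to Mtch2 ratio in FPKM was 0.530, 0.715 and 0.389 in control livers and 0.891, 0.859 and 1.02 in knockout livers. Slc25a46, which acts in mitochondrial fission and fusion, was at 60.6, 63.4 and 52.7 CPM and at 41.8, 38.2 and 38.8 CPM, a log2 fold change of -0.57 that did not pass with library sizes alone (-0.20). The uncharacterised Slc25a43 and Slc25a53 were scarce, at 0.312 and 2.17 CPM on average in the controls, with log2 fold changes of 1.12 and 0.61 that did not pass. Slc25a53 passed without control 3 (adjusted p = 0.0316 in edgeR). Slc25a43, whose groups did not overlap, passed with limma on log2(FPKM + 0.5) (0.48, adjusted p = 0.0086 in limma).

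By level per length, the control livers were dominated by 3 carriers. Slc25a5 had 362 ± 15.0 FPKM, Slc25a47 191.5 ± 34.5 FPKM and Slc25a39 116 ± 10.6 FPKM (SD, n = 3). Slc25a15, Slc25a13, Slc25a1 and Slc25a3 followed at 57.7 ± 7.93, 54.2 ± 9.06, 52.8 ± 2.55 and 49.5 ± 3.51 FPKM, and neighbours in this order did not differ beyond their spread. In the knockouts Slc25a5, Slc25a47, Slc25a39 and Slc25a15 kept ranks 1 to 4, at 259 ± 5.03, 124 ± 16.8, 97.8 ± 8.08 and 51.5 ± 6.58 FPKM. Ucp2 moved from rank 29 to 13 (7.18 ± 0.798 to 20.4 ± 1.56 FPKM) and Slc25a4 from rank 30 to 16 (3.86 ± 0.589 to 15.6 ± 0.187 FPKM). Split at the middle by mean FPKM over all libraries, the upper 23 tested members held 17 that fell, 2 that rose and 4 that did not pass, and the lower 23 held 4, 4 and 15. These are calls with TMM factors. In the upper 23, Slc25a39, Slc25a15, Slc25a13, Slc25a1, Slc25a3, Slc25a20 and Slc25a44 lost the call with library sizes alone. Shares of all genes at like levels were not computed.

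**Figure D4:**
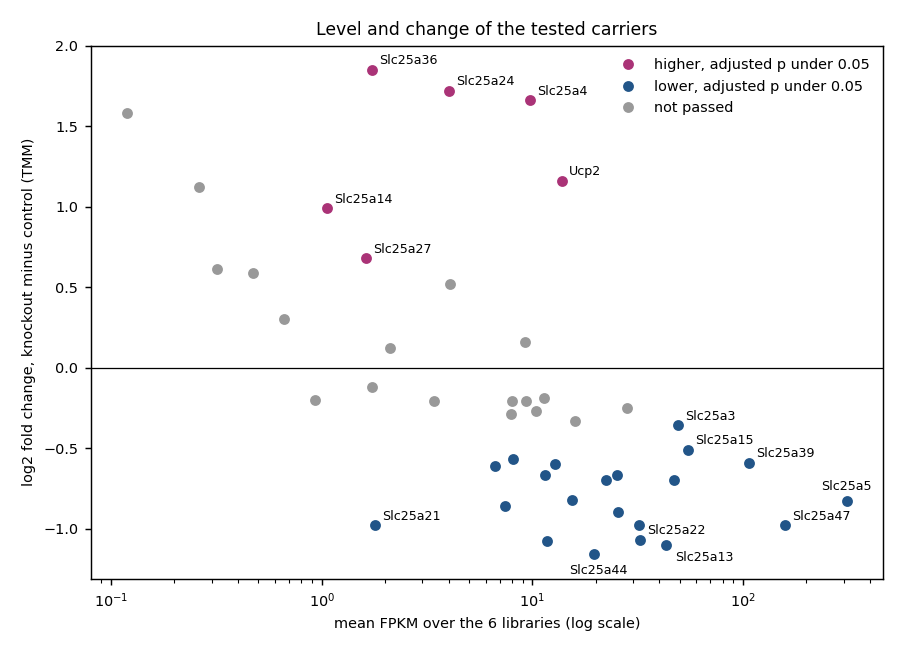
Mean FPKM over the 6 libraries (x axis, log scale) and log2 fold change with TMM factors (y axis) of 45 tested members. The most abundant members, Slc25a5, Slc25a47 and Slc25a39, lie below 0, and those that rose lie at the middle and lower levels, with Ucp2 the most abundant of them. With library sizes alone Slc25a3 lies at 0.01.

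Summed over the 49 members, FPKM were 1304, 1195 and 1347 in control livers and 1029, 1026 and 1003 in knockout livers, so that the knockout mean was 79.5% of the control mean. An exact permutation of the libraries, two-sided, returned p = 0.1, the lowest that 3 against 3 allows. Without the 3 highest members the knockouts were at 87.9%, and in TMM-scaled CPM the sum was at 65.3%. Slc25a5 alone made up 27.9%, 29.0% and 27.9% of the summed FPKM in control livers and 25.7%, 24.8% and 25.8% in knockout livers (exact permutation p = 0.1). The 6 members that rose together made up 1.09%, 1.18% and 1.21% in control livers and 4.66%, 4.86% and 4.90% in knockout livers. The share of Slc25a3 grew too, from 3.86% ± 0.181 to 4.82% ± 0.129 of the sum (SD, n = 3 each). Its own level did not rise, at 49.5 ± 3.51 FPKM in control and 49.1 ± 1.41 FPKM in knockout livers, while the sum was lower.

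**Figure D5:**
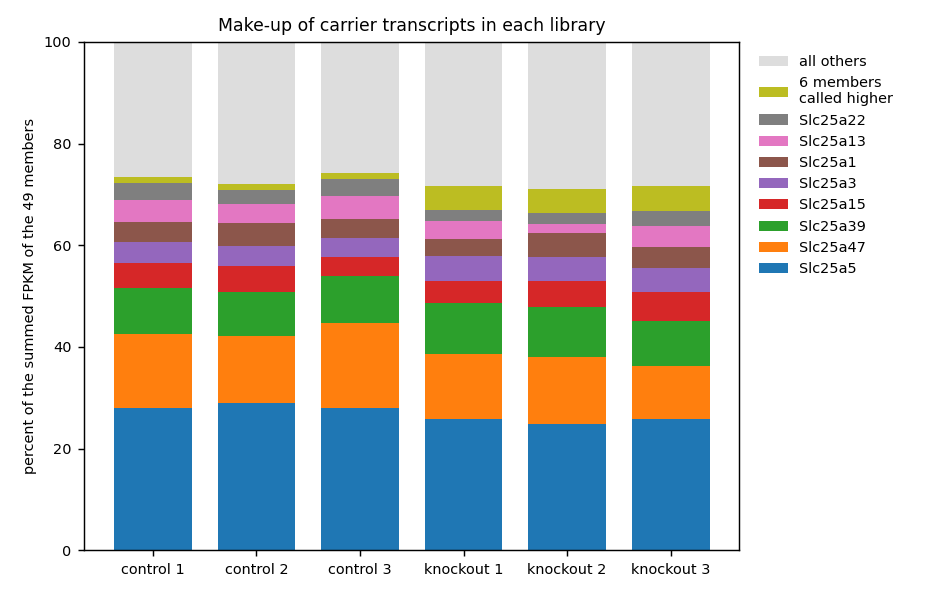
Share of the summed FPKM of the 49 members (y axis, percent) taken by the 8 most abundant members, by the 6 that rose and by all others, in each library. Slc25a5 takes 24.8% to 29.0% in every library, and the share of the 6 that rose is 1.09% to 1.21% in control livers and 4.66% to 4.90% in knockout livers.

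Genes that work with the carriers, from lists outside the family, gave 43 lower, 8 higher and 31 not passing of 82 tested with TMM factors, where 18.0% of all genes fell and 19.9% rose. With library sizes alone 22 of the 82 fell and 12 rose, where 6.6% and 34.1% of all genes did. By list, 7 of 10 shuttle, 3 of 8 urea cycle, 0 of 5 carnitine and 1 of 7 porin and nucleotide exchange genes then fell. So did 3 of 12 haem and iron-sulfur, 5 of 12 reference, 2 of 8 regulator, 1 of 8 calcium uniporter and 0 of 5 sideroflexin genes. The counts per list below are those with TMM factors. Of 10 shuttle enzymes 9 fell, among them Gpd1, the cytosolic glycerol phosphate dehydrogenase (761 ± 70.5 to 283 ± 20.5 CPM), its mitochondrial partner Gpd2 (107 ± 10.9 to 45.2 ± 4.86 CPM) and citrate synthase (Cs, 250 ± 26.4 to 122 ± 9.25 CPM), values that are means ± SD with n = 3 per group here and below. Of 8 urea cycle and ornithine enzymes 3 fell, and Arg2, the mitochondrial arginase, rose (1.75, a call lost without knockout 1). Ornithine transcarbamylase (Otc), which uses the ornithine that Slc25a15 imports, went from 193 ± 2.07 to 111 ± 17.3 CPM, the N-acetylglutamate synthase Nags from 66.3 ± 2.79 to 39.8 ± 4.80 CPM and ornithine aminotransferase (Oat) from 854 ± 223 to 213 ± 83.8 CPM. Cps1, the abundant enzyme at the entry of the cycle, was at a log2 fold change of -0.01 and did not pass. Of 5 carnitine system genes 3 fell, with Cpt2 at -0.97, Cpt1a at -0.79 and the plasma membrane carnitine transporter Slc22a5 at -0.83. Without control 1 the Cpt1a call was lost, and the Slc22a5 call was lost without any library except control 2.

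Porins and nucleotide exchange genes fell in 6 of 7 (among them Ak3 at -0.55, the outer membrane channel Vdac3 at -0.48), and haem and iron-sulfur genes in 7 of 12 (Cpox at -1.33, Alas1, the first enzyme of haem synthesis, at -1.86, Isca1 at -0.74). Genes of the calcium uniporter complex went both ways, with 3 of 8 higher (Micu3 at 1.13, Mcub at 1.32, Slc8b1 at 0.42) and Letm1 lower at -1.02. Among sideroflexins, another family of inner membrane transporters, Sfxn3 rose from 6.03 ± 0.406 to 24.7 ± 0.469 CPM, Sfxn4 stood at 1.74 and rose, and Sfxn1 fell by 0.51 on the log2 scale. The Mcub, Micu3, Slc8b1 and Sfxn4 calls were each lost when some of the libraries were left out. None of 5 BCL2 family genes passed, with Bcl2l1, Bid and Mcl1 at -0.95, -0.19 and 0.11. Of the 2 subunits of the pyruvate carrier, Mpc2 was lower at -0.32, a direction that turned to 0.05 with library sizes alone, and Mpc1 stood at -0.14. The Mpc2 call was lost without any library except control 2. Of 12 reference genes of mitochondria 9 fell, with a median of -0.54 and with Uqcrc2 at -0.94, Sdha at -0.60 and Hspd1 at -0.86. Of 8 regulators 3 fell and 2 rose, with Hnf4a at -0.80, Ppara at -1.31, Ppargc1b at -0.66, Ppard at 1.09 and Srebf1 at 0.50, and the Ppargc1b call was lost without any library except knockout 3.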

How the data were processed

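Liver RNA of 6 mice (3 per genotype) was sequenced as poly(A) RNA with second-strand marking and unique molecular identifiers, per the labels' protocols. Per the submitters' processing notes, StringTie 1.3.4d, HISAT2 2.0.4 and cutadapt 1.9 were used beside edgeR, DESeq2 and UMI-tools, whose roles are not given. The notes name mm9, but positions of 41 of 49 members were identical in GENCODE M21 (GRCm38). The deposited estimated counts are whole numbers, unscaled, and low values piled up at 4 (854 genes in control 1, against 280 at 3), so a read pair is worth about 4 counts and depth is overstated. FPKM as deposited by the authors are 0.0001 at a count of 0. Per the file headers the columns are wt and AlbCRE with a number. The wt columns were assigned to Prdx1(lox/lox), the only other genotype.

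The design named edgeR for counts, and rounding left these estimated counts as they were. All genes were fitted in R 4.3.3 with edgeR 4.0.16 (filterByExpr, minimum count 10 and total 15, TMM, genotype as the only term, two-sided, adjusted p under 0.05). The fit was tested on simulated data in which as many genes were raised as lowered, so that run cannot check the choice of scaling. Alternatives used DESeq2 1.42.0, limma 3.58.1 on log2(FPKM + 0.5), with pseudocounts 1 and 0.1, RLE factors, library sizes alone, no filter, counts divided by 4, a replicate block, and each library left out. Members, lists and pairs were chosen with earlier results of these data known. Of the tested genes, 1 member and 1 partner gene are counted but not reported here by name. Named were the other members, with library values for up to 4 called members of smallest p per group and the 5 of highest FPKM, and up to 3 genes of smallest p per outside list. Slc25a25, Mtch1, Slc25a12, Slc25a40, Slc25a48 and Slc25a51 were also given by library, and Acta1, Arg2, Cps1, Slc8b1, Ppargc1b and Srebf1 named, after their values were seen. Nothing says that the mice came from separate litters, and p-values measure the spread among them. Of 49 members, 18 overlap a gene on the opposite strand, and the use of strand in counting is not given in the sources used here.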

Additional observations from a re-analysis of the deposited data

How the results depend on the processing

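With library sizes alone or limma on FPKM (pseudocounts 0.5, 1 and 0.1), 12 members fell in place of 21, and 9 and 10 rose in place of 6. Partner genes that fell numbered 22 in place of 43 under these 4 settings, and markers that fell 11 with pseudocounts 0.5 and 0.1. Signs turned for members that had not passed and for Slc25a3. With library sizes alone, log2 fold changes became Slc25a23 0.12, Slc25a3 0.01, Slc25a42 0.10, Slc25a12 0.16, Slc25a26 0.25, Slc25a28 0.16, Slc25a33 0.04, Slc25a37 0.16, Slc25a51 0.18, Slc25a29 0.17, Slc25a38 0.08. With limma on log2(FPKM + 0.5) they became Slc25a23 0.10, Slc25a42 0.09, Slc25a12 0.12, Slc25a26 0.18, Slc25a28 0.13, Slc25a37 0.13, Slc25a51 0.25, Slc25a29 0.10, Slc25a38 0.05, with a pseudocount of 1 Slc25a23 0.10, Slc25a42 0.09, Slc25a12 0.11, Slc25a26 0.15, Slc25a28 0.13, Slc25a37 0.12, Slc25a51 0.23, Slc25a29 0.08, Slc25a38 0.05, and with 0.1 Slc25a23 0.10, Slc25a42 0.09, Slc25a12 0.14, Slc25a26 0.22, Slc25a28 0.14, Slc25a37 0.14, Slc25a51 0.26, Slc25a29 0.14, Slc25a38 0.06. With a library left out, signs also turned in Slc25a34 (-0.20 to 0.66), Slc25a51 (-0.50 to 0.02) and Mtch1 (-0.02 to 0.41). These genes, other than Slc25a3, did not pass, and the cause was not tested. RLE factors, DESeq2, no filter and counts divided by 4 changed no sign among tested members, and DESeq2 and the division each added Slc25a48 as higher.

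With a library left out, 19 to 21 members fell and 4 to 7 rose, partner genes that rose numbered 4 to 7 and those that fell 36 to 44, markers that rose 29 to 33 and that fell 17 to 18, and the summed FPKM lay at 76.9% to 81.6% of the controls. Without knockout 1 or without knockout 2, 4 members rose, and partner genes that rose numbered 4 without knockout 1 or knockout 3 and 5 without knockout 2. The 8 pairs that did not overlap did not overlap in counts either. Within a library the ratios in counts and in FPKM differ by an almost fixed factor, so this adds no support. Same-numbered libraries did not deviate together (correlations of 0.016, 0.063 and 0.044 over genes), so the numbers are not taken to pair mice, though each control correlated best with its own number. With a replicate block, 20 members fell and 4 rose, the calls of Slc25a14, Slc25a27 and Slc25a15 being lost (adjusted p = 0.0592, 0.0672 and 0.0623 in edgeR), and 5 partner genes rose in place of 8. Depth limits what can be said of members below about 1 CPM, such as Slc25a18, Slc25a43 and Ucp3.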

Other observations

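Within 50 kb of each other lay 5 pairs of family genes, and no pair had both members past the threshold. The pairs with Slc25a41, Slc25a54 or Ucp3 could not, as these genes were not tested. Slc25a29 and Slc25a47 stand head to head on chromosome 12, 162 bases apart in the deposited positions, and Slc25a47 fell (-0.98) while Slc25a29 stood at -0.20 and did not pass. RefSeq places the start of Slc25a47 further downstream, after position 108851128 and well inside the deposited gene, so the gap does not adjoin that start. The gap, shown because it separates the 2 annotated genes, runs on the strand of Slc25a29 with CCAAT and GC boxes in capitals.
Slc25a29, chr12:108835884-108836045, minus strand: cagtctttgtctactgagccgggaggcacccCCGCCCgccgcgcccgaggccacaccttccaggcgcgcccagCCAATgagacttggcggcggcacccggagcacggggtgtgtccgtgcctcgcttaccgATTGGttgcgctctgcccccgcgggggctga
Slc25a43 lies 18448 bases before Slc25a5 on chromosome X, and stood at 1.12 without passing while Slc25a5 fell by 0.83 on the log2 scale. Ucp3 ends 6904 bases before Ucp2 and had 12 deposited counts in all knockouts together, where Ucp2 rose. Slc25a54 had a count of 0 in every library 6461 bases from Slc25a24, which rose, and Slc25a41 had a count of 0 beside Slc25a23, 2056 bases away. Whether neighbours differ from other members was not tested.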
